A study of Homo sapiens with 4 samples.

Results

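The 8 mature miRNAs hsa-miR-10a, hsa-miR-10b, hsa-miR-99a, hsa-miR-99b, hsa-miR-100, hsa-miR-125a-5p, hsa-miR-125a-3p and hsa-miR-125b were examined in HepG2 cells treated with berberine. They were taken by name from the 851 human miRNAs listed on the arrays, as the relatives of the miR-10 and miR-99/100 seeds together with the miR-125 miRNAs that share gene clusters with miR-99/100 and let-7. HepG2 is an established human hepatoma cell line, and berberine is an isoquinoline alkaloid of plants. The study asked which miRNAs berberine alters. Cells received 40 µM berberine chloride, diluted from a 50 mM stock in dimethyl sulfoxide (DMSO), or 0.08% DMSO alone, and were harvested for total RNA at 2 h or 4 h. By the dilution of the stock, the berberine-treated cells also received 0.08% DMSO. Single-dye Agilent human miRNA arrays were used, with 1 array for each of the 4 conditions. There was therefore no replicate, and the errors given here are those of reading an array, while the spread between cultures is unknown.

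The miR-10 and miR-99/100 miRNAs are among the oldest animal miRNAs, and they differ from each other by a shift within the seed, the short stretch near the 5′ end through which a miRNA pairs with its targets. The miR-10 genes lie among the HOX genes, which set position along the body axis, while miR-99 or miR-100, a let-7 gene and a miR-125 gene form conserved clusters that are transcribed together. miR-125 is the vertebrate form of lin-4, a timer of larval development in the nematode, miR-99 and miR-100 are known to target the growth kinase mTOR, and miR-10b is known for its link to invasion in breast cancer.

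Mature sequences were matched by name to RefSeq entries of the assembly GRCh38.p14, and 7 of the 8 miRNAs matched. They are printed 5′ to 3′ with the seed, bases 2 to 8, in capitals, because the seed is what groups these miRNAs.
hsa-miR-10a: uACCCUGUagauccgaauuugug
hsa-miR-99a: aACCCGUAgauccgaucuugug
hsa-miR-99b: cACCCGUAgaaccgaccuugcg
hsa-miR-100: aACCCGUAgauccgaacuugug
hsa-miR-125a-5p: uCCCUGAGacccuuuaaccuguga
hsa-miR-125b: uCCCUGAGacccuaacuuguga
hsa-miR-125a-3p: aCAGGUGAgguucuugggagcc

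miR-99a, miR-99b and miR-100 shared the seed ACCCGUA. miR-99a and miR-100 differed at 1 base, U16A, counted from 1 at the 5′ end with the base of miR-99a first. miR-99a and miR-99b differed at 4 bases, A1C, U11A, U16C and U21C, none of them in the seed. The seed of miR-10a, ACCCUGU, was a different one, although miR-10a shared an unbroken run of 11 bases with miR-100, which began at base 7 of miR-10a and at base 6 of miR-100. miR-125a-5p and miR-125b shared the seed CCCUGAG and their first 13 bases. The seed of miR-125a-3p, the other arm of the miR-125a hairpin, was CAGGUGA. The array files hold no probe sequences, so how far the probes tell miR-99a from miR-100, which differ at a single base, was not tested.

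In GRCh38.p14, miR-10a lay at chr17:48579904-48579926 on the minus strand, within the interval of HOXB3. MIR10B lay within no other gene's interval in the same table. miR-99b was at chr19:51692618-51692639, and the 5p and 3p arms of miR-125a were at chr19:51693268-51693291 and chr19:51693306-51693327, all on the plus strand within the intervals of SPACA6 and its antisense gene SPACA6-AS1, with MIRLET7E as a neighbour. miR-99a, at chr21:16539101-16539122 on the plus strand, lay within the host gene MIR99AHG with MIRLET7C and MIR125B2. miR-100, at chr11:122152275-122152296 on the minus strand, lay within MIR100HG with MIRLET7A2 and MIR125B1. The same mature miR-125b comes from both MIR125B1 (chr11:122099809-122099830, minus strand) and MIR125B2 (chr21:16590253-16590274, plus strand), and its signal cannot be divided between these 2 loci.

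All 4 arrays lay on 1 slide read in 1 scan, and 0 of 15739 features on an array were saturated. Of 851 human miRNAs, 199 to 242 were detected on an array and 197 on all 4. The deposited signals were not scaled, and the 75th percentile over these 197 miRNAs was 243 on the control and 169 on the berberine array at 2 h, against 225 and 297 at 4 h. The cell line was checked against liver and hepatoma miRNAs, of which 6 of 7 were detected on all 4 arrays, miR-122, the hepatocyte miRNA, among them, and miR-675 on none. Of 18 markers of blood, mesenchymal, endothelial, muscle and neural cells, 2 were detected on all 4 arrays and 13 on none. The 2 were the mesenchymal markers miR-145 and miR-199a-3p, while miR-142-3p, miR-451 and miR-143 were detected on the 4 h berberine array alone. On the 2 h control array, miR-145 had a signal of 30.8 and miR-199a-3p of 20.1, beside 31.5 for miR-122. In total RNA from a culture, fewer cells with a miRNA and less of it per cell cannot be told apart.

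All the miRNAs but miR-125a-3p, 7 of 8, were detected on all 4 arrays (87.5%), against 23.1% of all human miRNAs. Detection means that at least 1 probe of the miRNA stood above 3 times its own error. The values below are the total signals of Feature Extraction, the scanner software, in arbitrary intensity units, each with its error.

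miR-10b, encoded in the HOXD cluster, had a signal of 934 ± 70.8 in control and 593 ± 44.6 in berberine-treated cells at 2 h, and of 856 ± 64.3 and 1248 ± 93.9, in the same order, at 4 h. miR-10a, its HOXB relative, had a signal of 36.3 ± 3.81 and 26.2 ± 3.06 at 2 h, and of 38.0 ± 4.08 and 61.2 ± 5.87 at 4 h. In both, the 4 h berberine array was the highest and the 2 h berberine array the lowest, the same order as the brightness of the arrays at those extremes.

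miR-99a had a signal of 33.6 ± 2.98 in control and 20.7 ± 2.73 in berberine-treated cells at 2 h, and of 31.5 ± 3.18 and 43.7 ± 3.69 at 4 h. For miR-99b, the values were 75.9 ± 5.86 and 53.2 ± 4.54 at 2 h, and 60.7 ± 4.94 and 99.95 ± 7.51 at 4 h. miR-100 was the miRNA of this seed with the largest relative errors, with 8.26 ± 1.40 and 5.37 ± 1.67 at 2 h, and 7.34 ± 1.65 and 11.9 ± 1.68 at 4 h. The highest and lowest arrays were again the berberine arrays of 4 h and 2 h for all 3.

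miR-125a-5p had a signal of 52.5 ± 4.39 in control and 36.2 ± 3.61 in berberine-treated cells at 2 h, and of 52.0 ± 4.60 and 72.3 ± 5.82 at 4 h. miR-125b had 33.7 ± 3.42 and 22.1 ± 2.71 at 2 h, and 26.0 ± 2.99 and 48.1 ± 4.54 at 4 h. Its control array of 4 h lay below that of 2 h, while those of miR-125a-5p lay within their errors of each other. The 2 h control total of miR-125b held a second probe that the 4 h control total did not. Its first probe alone gave 29.9 ± 3.20 and 26.0 ± 2.99 on these control arrays. miR-125a-3p was not detected on any array, and the highest of its 3 probes on the 4 arrays reached 2.77 times its error.

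**Figure D1:**
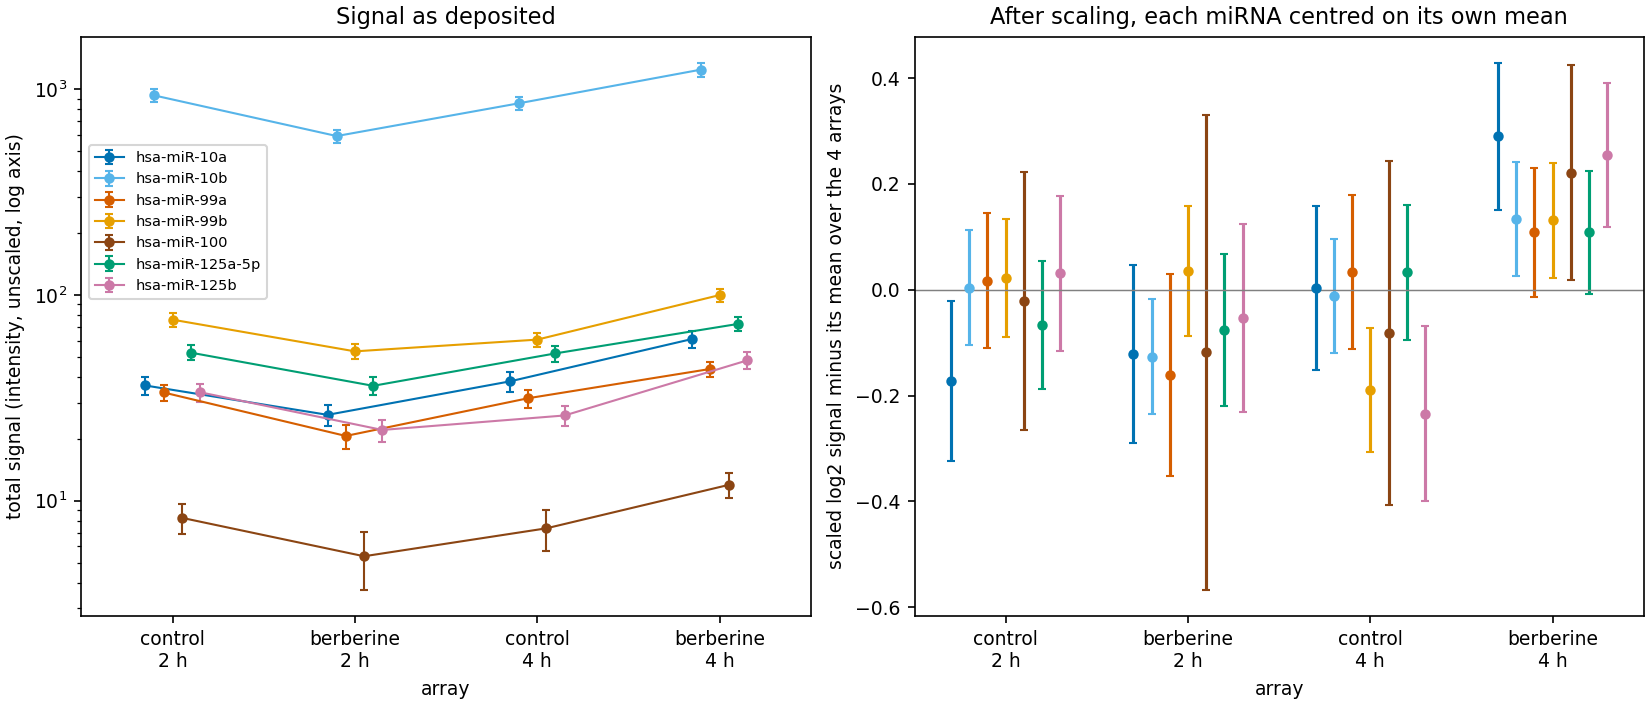
Signals of the 7 detected miRNAs on the 4 arrays, with the error of Feature Extraction as bars and 1 array per condition. On the left, the unscaled total signal (intensity, log axis) was lowest on the 2 h berberine and highest on the 4 h berberine array for all 7 miRNAs. On the right, the log2 signal after scaling, centred on each miRNA's mean over the 4 arrays, spans a narrower range in which most bars overlap.

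Unscaled, berberine over control was 0.614 to 0.720 at 2 h and 1.39 to 1.85 at 4 h in the 7 miRNAs. Of all human miRNAs with a ratio, 2.03% were above 1 at 2 h and 93.6% at 4 h before scaling, so the arrays as a whole differed in the same directions. For scaling, the signals of an array were divided by its 75th percentile over the 197 miRNAs detected everywhere, and log2 values were used. The standard error (SE) of a log2 ratio was propagated from the signal errors, and a ratio beyond 1.96 SE of 0 is called outside its measurement error, which is no test between cultures.

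At 2 h, none of the 7 miRNAs differed between berberine and control by more than its measurement error. The scaled log2 ratios of the miR-10 pair were 0.05 (SE 0.23) for miR-10a and -0.13 (SE 0.15) for miR-10b. Those of the miR-99/100 seed were -0.18 (SE 0.23) for miR-99a, 0.01 (SE 0.17) for miR-99b and -0.10 (SE 0.51) for miR-100. Those of the miR-125 seed were -0.01 (SE 0.19) for miR-125a-5p and -0.08 (SE 0.23) for miR-125b. Their median was -0.08, with 2 above and 5 below 0, and the median over all 197 human miRNAs with a ratio was -0.02. Of the members, 0 were past 2-fold, the threshold of the study's methods, and among all human miRNAs 0.508% were past it upward and 0.508% downward. Outside the measurement error were 0 members, against 7.11% of all human miRNAs upward and 2.03% downward. The 95% range of the miR-10b ratio was 0.741-fold to 1.13-fold and that of miR-100 was 0.468-fold to 1.87-fold, so the precision differed widely between members.

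At 4 h, miR-125b and miR-99b were higher on the berberine array by more than their measurement error with the scaling used. miR-125b was at 1.40-fold (log2 0.49, SE 0.21, 95% range 0.07 to 0.91), and miR-99b at 1.25-fold (log2 0.32, SE 0.16, 95% range 0.0069 to 0.63), with its lower end close to 0. Neither direction held under every processing. With a normexp background correction the log2 ratio was -0.24 for miR-125b and -0.13 for miR-99b, and that of miR-99b was -0.085 where undetected miRNAs were included in the percentile used for scaling. The median over all 218 human miRNAs was then -0.33 with normexp and -0.30 with that percentile, below these values. The miR-125b value also held 1 more probe on the berberine than on the control array, and with the same probes it was within its error (log2 0.32, SE 0.21), next to the unaltered 0.32 of miR-99b. These 2 of 7 stand beside 8.72% of 218 human miRNAs outside the error upward and 2.75% downward. The other log2 ratios were 0.29 (SE 0.21) for miR-10a and 0.15 (SE 0.15) for miR-10b. In the miR-99/100 seed they were 0.07 (SE 0.19) for miR-99a and 0.30 (SE 0.38) for miR-100, and miR-125a-5p stood at 0.08 (SE 0.17). None was past 2-fold, with 0.459% of all human miRNAs past it upward and 0.459% downward.

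All 7 ratios at 4 h were above 0 with this scaling, with a median of 0.29, but 4 of 7 were above 0 when the arrays were scaled on their median or by quantiles, 5 with the brightest probe of each miRNA, 3 with the mean over all its spots, and 1 with a normexp background correction or where undetected miRNAs were included in the 75th percentile. The whole array moved with the scaling too. The median over all 218 human miRNAs was 0.11 with the scaling used and -0.06 with the median scaling, and 69.7% and 34.9% of them were above 0. At 4 h, the median of the 7 miRNAs lay 0.18 above that of all human miRNAs under any scaling by a constant, but 0.096 above it with quantiles, 0.058 with the same probes summed and 0.0056 with normexp. At 2 h it lay 0.06 below with the scaling used.

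**Figure D2:**
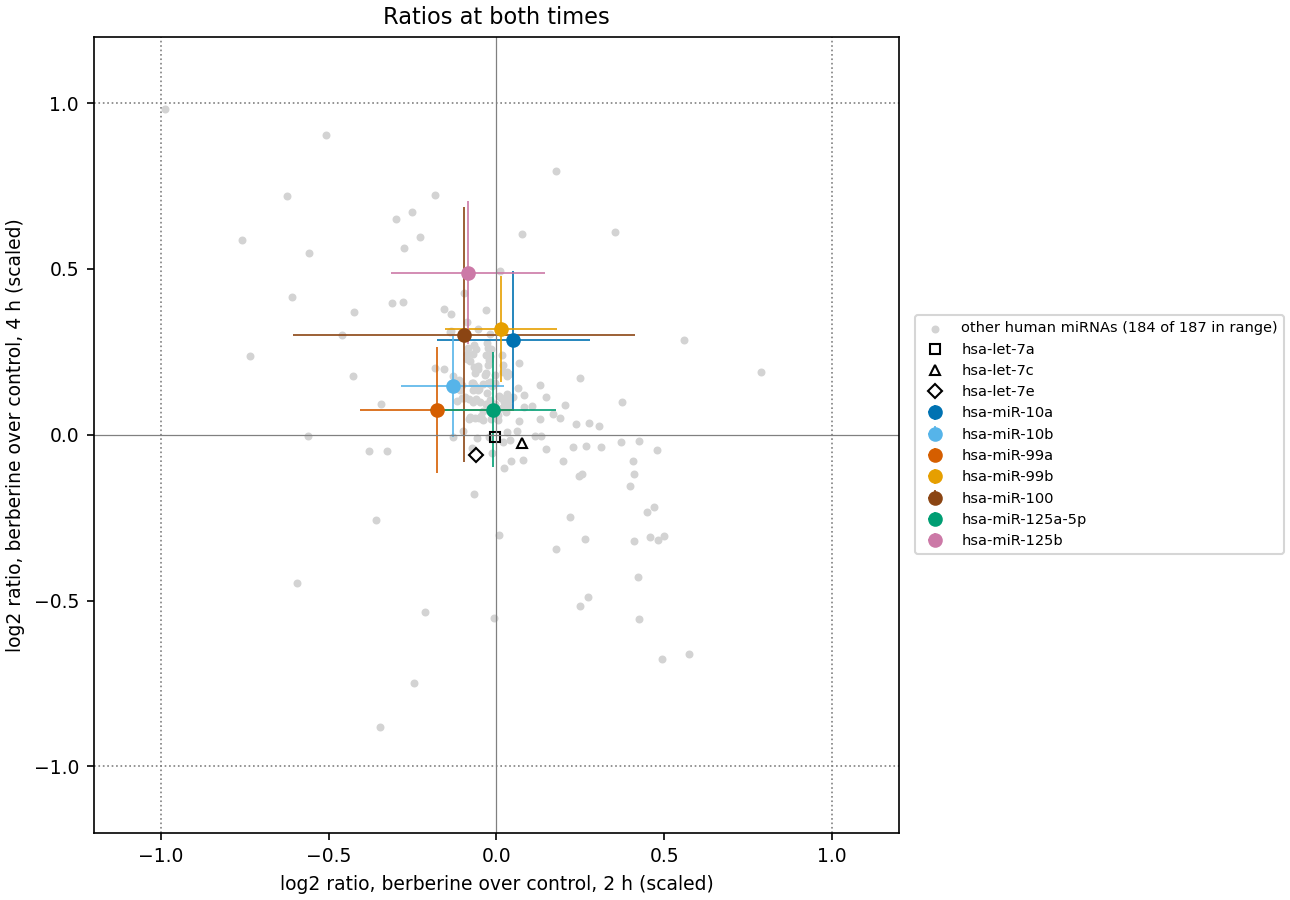
Scaled log2 ratios of berberine over control at 2 h (horizontal) and 4 h (vertical), with 1 SE of the measurement as bars for the 7 detected miRNAs, the 3 let-7 relatives as open black symbols without bars and other human miRNAs in grey (184 of 187 lie in the range shown). Dotted lines mark a 2-fold ratio, which no coloured point passes. The miR-125b point at 4 h, at 0.49, includes a probe counted on the berberine array alone, and stands at 0.32 with the same probes on both arrays.

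The probes of each miRNA were then compared, since a probe enters the total signal of an array where it exceeds 3 times its own error there, and is left out otherwise. This sum matched the total within 1% for 902 of 902 values. miR-125b had 2 probes of 8 spots each. Its first probe gave 29.9 in control and 22.1 in berberine-treated cells at 2 h, 26.0 and 41.7 at 4 h, and was counted on every array. Its second probe gave 3.76 and 2.90 at 2 h and 3.29 and 6.40 at 4 h, and was counted on the 2 h control and 4 h berberine arrays alone. The total at 4 h thus held 1 probe for control and 2 for berberine-treated cells. With the same 2 probes summed on both arrays, the 95% range of the log2 ratio of miR-125b at 4 h was -0.10 to 0.74, around the 0.32 given above. The first probe alone gave 0.28 (SE 0.22), and its 8 spots on the berberine array lay above the spots kept on the control array after scaling, without overlap. At 2 h, the ratio of miR-125b with the same probes was 0.09 (SE 0.23), on the other side of 0 from the value above.

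miR-10a was counted unevenly as well. Its second probe passed on the 4 h berberine array alone, with 5.14 ± 1.30 against 3.98 ± 1.53 on the 4 h control array. With both probes summed on each array, its log2 ratio at 4 h was 0.14 (SE 0.20) in place of 0.29. The spots of its first probe, with a log2 ratio of 0.16 (SE 0.21), lay higher on the berberine array without overlap. For miR-99b, both probes were counted on all 4 arrays, and they gave 0.37 (SE 0.23) and 0.29 (SE 0.21) at 4 h. The spots of the first miR-99b probe did not overlap between the 2 arrays and those of the second did. Spots of 1 probe share an array and a hybridisation and are not replicates of the treatment.

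miR-10b, miR-99a, miR-99b and miR-125a-5p had both probes counted on all 4 arrays. In these 4 miRNAs the ratios of the 2 probes had the same sign at 2 h and at 4 h, and differed by 0.018 to 0.14 on the log2 scale at 2 h and by 0.012 to 0.20 at 4 h. For miR-100, 1 probe carried the whole signal, and the other was at most 0.44 times its error. With the same probes summed for every miRNA, 1 of the 7 members, miR-99b, was outside its error at 4 h. This stands beside 11 of 218 human miRNAs upward and 6 downward, and the members' median was 0.15 against 0.09 for all. Neither miR-99b probe alone was outside its error at 4 h, and the SE of their sum takes the errors of the 2 probes as independent.

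**Figure D3:**
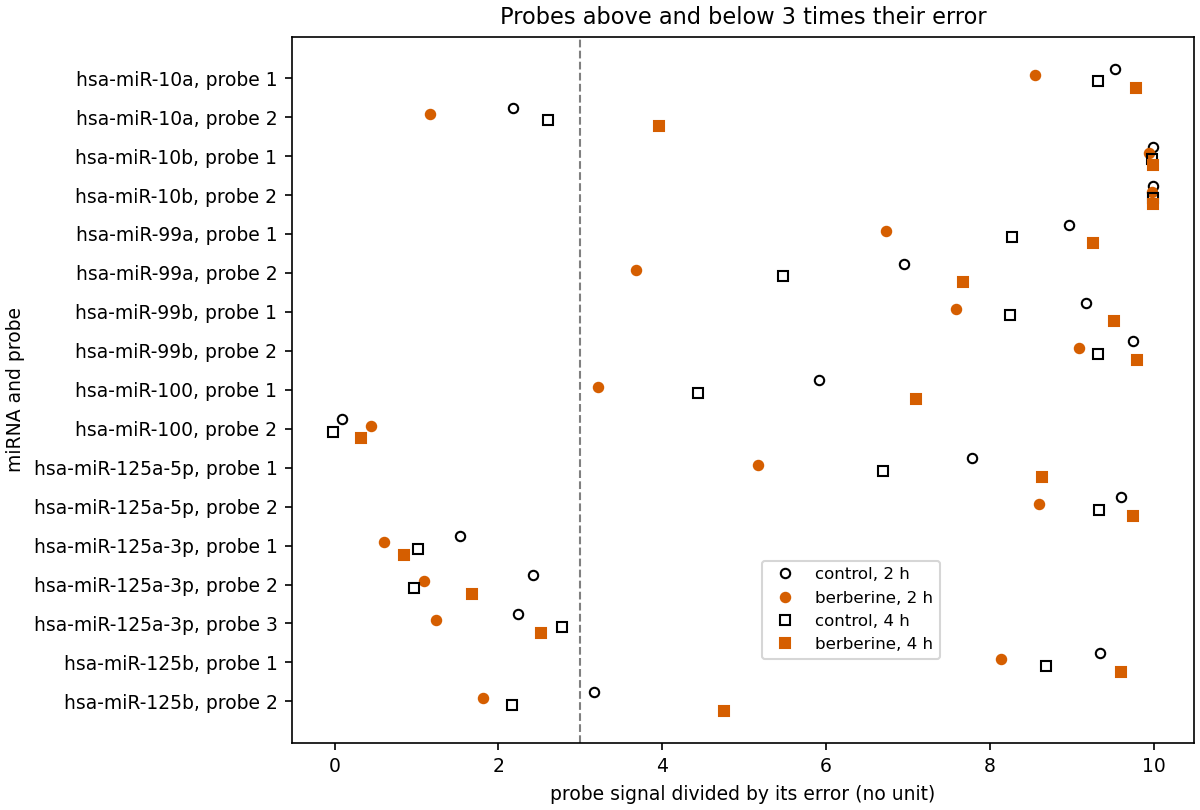
Signal of each probe divided by its error on the 4 arrays (circles 2 h, squares 4 h, open control, filled berberine). The dashed line is the limit of 3 above which a probe enters the total signal. The second probes of miR-10a and miR-125b lie on both sides of it, and the probes of miR-125a-3p and the second probe of miR-100 lie below it on every array.

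Arrays of the same treatment at the 2 times give a view of how far arrays differ, although time and array cannot be told apart. Between the 2 control arrays, the log2 ratio of 4 h over 2 h ranged from -0.26 (miR-125b, SE 0.22, with uneven probe counting again, and -0.09 with the same probes) to 0.18 (miR-10a, SE 0.22), with a median of -0.02. No member was past 2-fold, with 0.457% of human miRNAs past it upward and 1.83% downward. None was outside its error, with 0.457% of human miRNAs upward and 6.39% downward. miR-99b, the other miRNA with a raised ratio at 4 h, stood at -0.21 (SE 0.16) between the controls, so its 4 h control array was the lowest of its 4 scaled values.

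Between the 2 berberine arrays, the log2 ratio of 4 h over 2 h was 0.10 (SE 0.16) for miR-99b and 0.19 (SE 0.18) for miR-125a-5p. It was 0.26 (SE 0.15) for miR-10b, 0.27 (SE 0.23) for miR-99a and 0.31 (SE 0.22) for miR-125b, and it reached 0.34 (SE 0.49) for miR-100 and 0.41 (SE 0.22) for miR-10a. The second probes of miR-125b and miR-10a were counted at 4 h and not at 2 h, and with the same probes summed on both berberine arrays the values were 0.13 (SE 0.23) and 0.31 (SE 0.23). The median of the 7 was 0.27 against 0.05 for all 197 human miRNAs, and 0.26 against 0.0061 with the same probes. No member was past 2-fold (1.02% of human miRNAs upward, 2.03% downward) or outside its error (4.57% upward, 15.2% downward).

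The ratio at 4 h minus the ratio at 2 h was positive in all 7 miRNAs with the scaling used, from 0.09 (SE 0.26) for miR-125a-5p to 0.57 (SE 0.31) for miR-125b. The share of all human miRNAs with a positive difference was not counted, but their ratios as a whole moved the same way. Their median was -0.02 at 2 h and 0.11 at 4 h, with 42.1% and 69.7% above 0. The value of miR-125b rests on uneven probe counting at both times and was 0.22 (SE 0.32) with the same probes, below the 0.40 (SE 0.64) of miR-100, while that of miR-10a was 0.09 in place of 0.24. None was outside its error, while 7.61% of 197 human miRNAs were outside it upward and 6.6% downward. The ratio was below 0 at 2 h and above 0 at 4 h in 5 of the 7 (71.4%). Among all human miRNAs the sign differed between the times, in either direction, in 67.5%. The share of them in that 1 direction was not counted.

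Fitted over both times with limma, with treatment and time point as terms and the times standing in for replicates, 0 of the 7 miRNAs passed an adjusted p of 0.05 and 0 had an unadjusted p under 0.05. Among all 197 miRNAs fitted, the same fit called 0.508%, and 4.57% had an unadjusted p under 0.05. The limma log2 ratio was 0.20 (SE 0.21) for miR-125b, 0.17 (SE 0.21) for both miR-10a and miR-99b, and 0.10 (SE 0.21) for miR-100. It was 0.03 for miR-125a-5p, 0.01 for miR-10b and -0.05 for miR-99a, each with an SE of 0.21. The adjusted p by limma was 0.997 for each. These values moved when single arrays were left out. The fits with 1 array left out had no time term, so time and treatment are partly mixed in their ratios. With all arrays kept, the fit without the time term gave the same ratios as the fit with it. Without the 2 h berberine array the ratio was 0.37 for miR-10a, 0.36 for miR-125b and 0.27 for miR-100, and without the 4 h berberine array it was -0.04, 0.05 and -0.07. That of miR-99b was 0.27 without the 2 h control array and 0.06 without the 4 h control array. For miR-10b, miR-99a and miR-125a-5p it was 0.14, 0.08 and 0.13 without the 2 h berberine array, against -0.12, -0.19 and -0.06 without the 4 h one. The fit had 1 residual degree of freedom, and limma added 54.2 prior ones estimated from all 197 miRNAs. Each SE of 0.21 thus came largely from a pooled variance and is not the spread of that miRNA alone. A p that misses the threshold does not show that a level stayed the same.

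The let-7 miRNAs of the shared clusters were set beside them. let-7 is a brake on growth genes such as those of the RAS family. All 3, let-7a, let-7c and let-7e, were detected on all 4 arrays. let-7e, transcribed with miR-99b and miR-125a, had a signal of 185 in control and 123 in berberine-treated cells at 2 h, then 182 and 231 at 4 h, with log2 ratios of -0.06 (SE 0.15) at each time. let-7c, the neighbour of miR-99a and MIR125B2, gave 0.08 (SE 0.21) at 2 h and -0.02 (SE 0.18) at 4 h. let-7a, which comes from other loci besides the one beside miR-100, gave -0.0048 (SE 0.15) at 2 h and -0.0067 (SE 0.15) at 4 h. At 4 h all 3 let-7 ratios were below the 7 ratios of the miRNAs described here with the scaling used. The nearest of these were let-7a and miR-99a (0.07, SE 0.19), with a gap smaller than the SE of either. Of all 218 human miRNAs with a ratio at 4 h, 66 were below 0, as the 3 let-7 were, and 152 above it.

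Pairs of miRNAs from the same cluster were compared by the difference of their ratios, for 9 pairs at each time. No pair differed by more than 1.96 SE at 2 h or at 4 h. The widest gap at 4 h was between let-7c and miR-125b, -0.51 (SE 0.28, 95% range -1.07 to 0.04), and it holds the uneven probe counting of miR-125b. Within the cluster of miR-99b, the 4 h ratio of miR-99b exceeded that of let-7e by 0.38 (SE 0.22) and that of miR-125a-5p by 0.24 (SE 0.24).

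The opposite arms of these hairpins, named with an asterisk on the array, were mostly below detection. Of 10 such arms of the miR-10, miR-99/100, miR-125b and cluster let-7 hairpins, 0 were detected on all 4 arrays and 9 on none. The remaining arm, miR-10b*, was detected on 3 arrays with a signal of 8.29 in control cells at 2 h and, at 4 h, of 6.67 in control and 9.64 in berberine-treated cells, with a log2 ratio at 4 h of 0.13 (SE 0.42). It was not detected on the 2 h berberine array, the dimmest of the 4. The other miRNAs of the HOX clusters, miR-196a, miR-196a*, miR-196b, miR-615-3p and miR-615-5p, were detected on 0 of the 4 arrays.

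The miRNAs whose pattern over the 4 arrays was most like that of miR-10b, the member with the smallest relative error, were sought among the 196 others detected on all arrays. Likeness was the root mean square difference of scaled log2 signals, each centred on its own mean. miR-19b was closest at 0.018, followed by miR-374a at 0.024 and miR-26b at 0.026, against a median of 0.123 over all 196. The centred values of miR-10b ranged from -0.13 to 0.13, so these distances are within its errors and the order of the closest miRNAs is not resolved. Among the members, miR-99a ranked 5 (0.032), miR-125a-5p 20 (0.050) and miR-100 30 (0.057), while miR-10a, the other HOX cluster member, ranked 95 (0.118). miR-99b ranked 97 and miR-125b 106. The distance of miR-10a was also below the errors of its own log2 signals, 0.14 to 0.17. The signals of miR-10a and miR-125b hold the uneven probe counting described above.

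**Figure D4:**
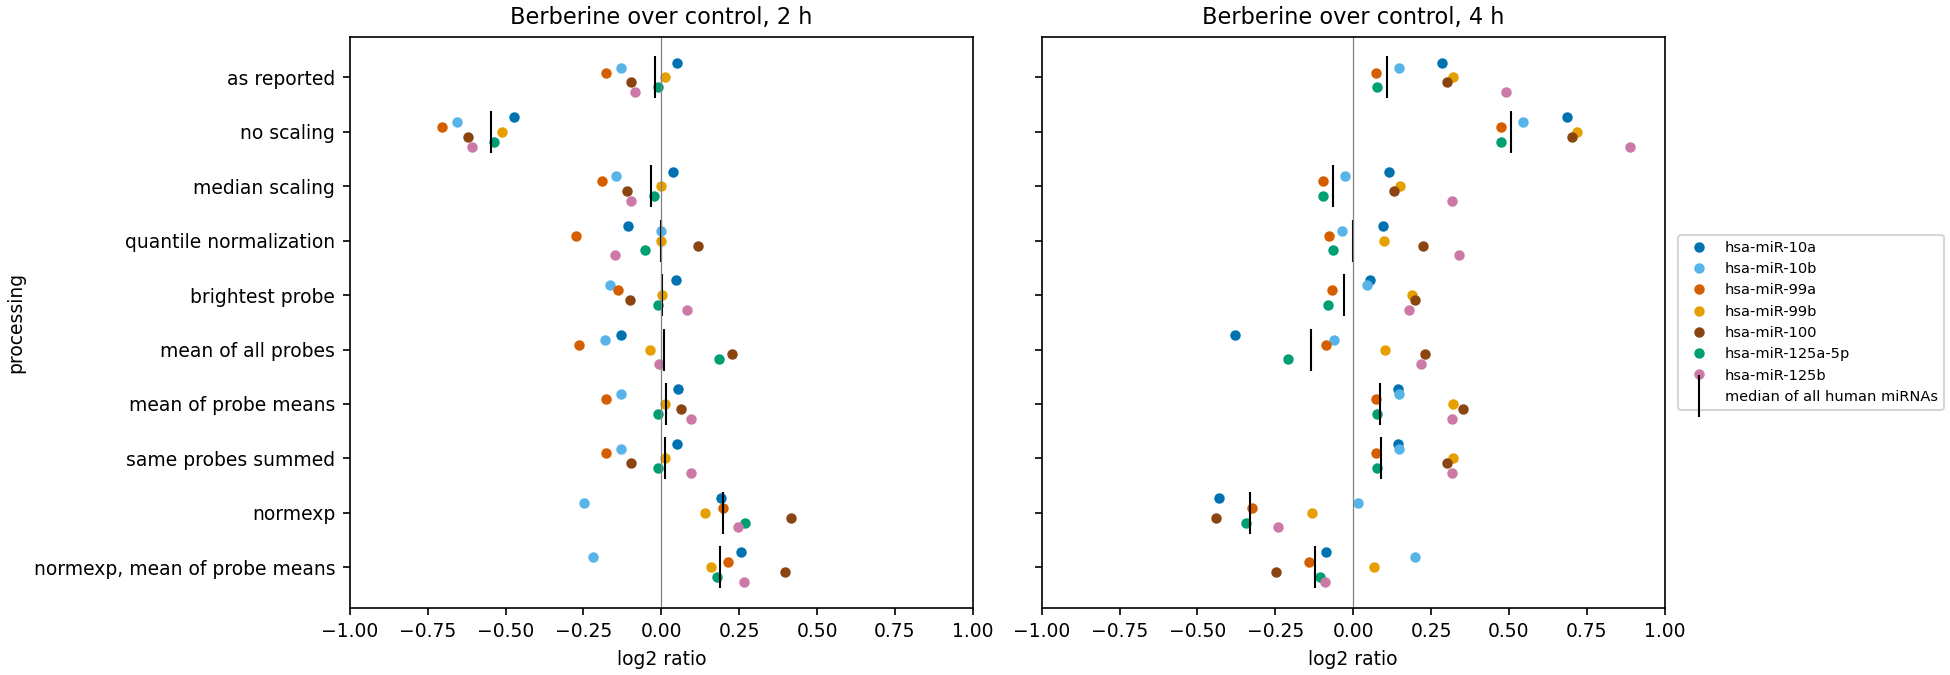
Log2 ratios of berberine over control at 2 h and 4 h for the 7 detected miRNAs under each way of processing named on the left, with a black bar at the median of all human miRNAs. The scaling on all human miRNAs, undetected ones included, is left out, since its values at 2 h lie near 5. Without scaling and with median scaling the members move with the black bar. With normexp, miR-10b does not follow it, at -0.25 at 2 h and 0.01 at 4 h, with the bar at 0.20 and -0.33. At 4 h, miR-125b comes closer to the others where the same probes are summed.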

How the data were processed

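Total RNA of HepG2 cells was hybridised to Agilent human miRNA arrays (R14 V2), with 1 array per condition. The authors deposited, for each array, the output of Feature Extraction 10.7.3.1, which holds a background-subtracted intensity with its error for each spot, probe and miRNA, not scaled between arrays. The array headers name an older genome build, so sequences and positions were taken by name from RefSeq tables of GRCh38.p14. The authors also deposited a table of their own ratios of berberine over control, which was not used.

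Signals were scaled to the 75th percentile over the human miRNAs that all 4 arrays detected, and taken as log2. A ratio needed detection on both arrays. A signal of 0.1, written where no probe was detected, was not used as a level. Only measurement errors are available, and their size for dim miRNAs, such as those near the lowest detected signal of 1.79 to 2.52, limits the precision, as does the number of arrays.

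The times served as replicates in limma 3.58.1 (R 4.3.3), with treatment and time point as terms and Benjamini-Hochberg adjustment over 197 miRNAs. The fit over both times was tested on simulated data (20 runs, 20 changed miRNAs among 197), where it found 84% of log2 changes of 1 and 99% of those of 2. The simulated noise had the same spread for every miRNA and no array or time effect. Changes below 1 were not simulated, while the largest ratio of a member was 0.49. These shares are therefore no measure of the sensitivity for the members. Other steps used Python 3.11.15 with numpy 2.4.6, pandas 2.3.3 and matplotlib 3.10.9.

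The miRNAs named were the 8 members, the let-7, opposite-arm and HOX cluster lists, and the 3 miRNAs most like the member with the smallest relative error. Members and lists were chosen with earlier results of these data known. Alternatives were other scalings, probe summaries, background correction, filters and a 1.5-fold threshold. For limma they were no time term, with all arrays kept or with 1 left out.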

Additional observations from a re-analysis of the deposited data

Results flagged for a closer look

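In 5 of the 7 detected miRNAs, the scaled ratio of berberine over control was below 0 at 2 h and above 0 at 4 h. The ratio at 4 h minus that at 2 h was 0.57 (SE 0.31) on the log2 scale for miR-125b and 0.40 (SE 0.64) for miR-100. It was 0.28 (SE 0.22) for miR-10b, 0.25 (SE 0.30) for miR-99a and 0.087 (SE 0.26) for miR-125a-5p. No test of the change between times was possible with a single array per condition, so the difference is untested. None of the 5 was outside its measurement error, and 67.5% of 197 human miRNAs had ratios of opposite sign, counted in either direction. The opposite sign depends on the scaling and the probes summed, and for miR-125b it was gone with the same probes summed (0.09 at 2 h, 0.32 at 4 h), where its difference was 0.22 (SE 0.32).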

How the results depend on the processing

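The count of members past 2-fold stayed at 0 at both times under every alternative run except the 75th percentile over all human miRNAs, where 7 were past it upward at 2 h and the median was 5.02, because on the 2 h berberine array the 75th percentile was the placeholder of an undetected miRNA. The median log2 ratio of the members at 2 h was -0.61 without scaling and 0.20 with normexp, against -0.08. At 4 h it was 0.68 without scaling, -0.12 scaled on all human miRNAs, 0.096 with quantile normalization, 0.054 with the brightest probe, -0.062 with the mean over all spots and -0.33 with normexp, against 0.29. At 4 h, miR-99b changed sign to -0.085 scaled on all human miRNAs and to -0.13 with normexp, and miR-125b to -0.24 with normexp. The median over all human miRNAs was -0.30 scaled on all human miRNAs and -0.33 with normexp, below these values. The scaling on all human miRNAs moves every ratio of a time point by the same amount. With normexp, the cause of the sign changes was not tested. A mean over all spots weights a probe by its spots without an outlier flag, and for miR-10a on the 4 h berberine array these were 6 and 7 for its 2 probes, against 7 and 5 on the control array. With spots averaged per probe first, a version chosen after seeing the data, the 4 h median was 0.15 and 7 of 7 ratios were above 0. Normexp averaged in that way gave medians of 0.21 at 2 h and -0.092 at 4 h, with miR-125b at -0.092 and 2 of 7 above 0 at 4 h. The members' median at 4 h lay above that of all human miRNAs by 0.18 under each scaling by a constant, by 0.096 with quantiles, by 0.058 with the same probes summed and by 0.0056 with normexp. limma called 0 members under each alternative that kept all 4 arrays, with an adjusted p of 0.444 or above. Those fits called few of all 197 miRNAs either. They called 2 with spots averaged per probe first, 1 with the same probes summed and 0 in each of the others. The runs without 1 array had no time term and left 1 array of a treatment, so only their ratios are given above. Normexp was run on median spot signals, in the absence of mean ones, with an offset of 50 added to each corrected signal. With detected miRNAs above the median signal alone, 1 member was left at 2 h and 3 at 4 h. The alternative with the authors' table was not run, since that table holds their comparisons only. Berberine and control were paired by time in the limma fit, and without the time term 0 members were called as well (adjusted p = 0.997). No replicate block was added, since each condition has 1 array. Signal over background limited the dim members, and the 95% range of miR-100 at 4 h spanned 0.733-fold to 2.08-fold.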
